A study of Mus musculus with 10 samples.

Results

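The genes described here encode the machinery of regulated cell death, and 43 of them were listed by name: BCL-2 family proteins, caspases and their activators, inhibitors of apoptosis, death receptors, necroptosis kinases, inflammasome and gasdermin proteins, PARP1, AIF and the calpains. The rule that chose them uses names and no measured value, although earlier results of these data were known when the list was made, and 26 of the 43 were in the deposited table of 11702 genes. These 26 are the members. The other 17 were not in that table and were followed in the deposited transcript table instead. Retinas came from female mice of 3 groups. WT mice injected with DMSO gave 4 libraries (W1 to W4), rd10 mice injected with DMSO gave 3 (D1 to D3) and rd10 mice injected with halofantrine gave 3 (H1 to H3). The rd10 line (B6.CXB1-Pde6brd10/J) carries a Pde6b mutation in every cell and loses its rods early, and the WT strain is not named in the sources used here. Each group received 1 μL into the vitreous at P10 and again at P24, either DMSO or 20 μM halofantrine, an antimalarial given here as the test drug, and retinas were collected at P36. By the labels D3, H2 and H3 are batch 2 and all other libraries batch 1, and the labels do not say what a batch is. The sample titles also name sets: set1 for W1 to W3, set1_5 for W4, and set2 for D1, D2 and H1. In batch 2 they give last_rd10 for H2 and H3 and final_rd10 for D3. Within batch 1 genotype and set cannot be told apart, nor can treatment and set within batch 2.

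In the intrinsic pathway of apoptosis, BH3-only proteins release BAX and BAK from survival proteins such as BCL-2, the mitochondrion leaks cytochrome c, and APAF1 then activates caspase-9 unless inhibitor of apoptosis proteins hold caspases in check. Death receptors start the extrinsic pathway through caspase-8, and the same receptors lead to necroptosis through RIPK1, RIPK3 and MLKL. Pyroptosis runs through inflammasomes, caspase-1 and pore-forming gasdermins, while calpains are calcium-activated proteases that are known, with PARP1 and AIF, for a part in photoreceptor death in retinal degeneration.

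The library labelled WT W4 did not match its label. Its 12 rod marker genes summed to 2874 normalised CPM, below every rd10 library, while W1 to W3 had sums of 74233 to 78740. Comparisons with WT are therefore given against W1 to W3 and again with W4 included. Counts on genes ranged from 15512212 (D3) to 38160436 (D2). Normalised CPM are gene counts that the authors scaled by a factor for each library, and all fold changes below are log2 values with their standard errors from edgeR's quasi-likelihood test, called at an adjusted p under 0.05 over all genes tested. The libraries are labelled as separate samples, and the tests measure the spread between them.

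Against W1 to W3, 10 of the 26 members were higher and 8 were lower in rd10 DMSO retinas, and 8 were not called. Over all 11696 genes tested, 62.2% were called, 32.3% higher and 29.9% lower, so the members' counts were near the background. The members' median log2 fold change was -0.03, beside -0.01 over all genes. Scaling by library totals in place of TMM moved the median of all genes to 0.19, gave 12 members higher and 2 lower (5409 and 2031 of all genes), and ended the calls of Bcl2, Bcl2l2, Bcl2l11, Birc2, Aifm1 and Parp1, while Bak1 (0.55, adjusted p = 0.00852) and Ripk1 (0.41, adjusted p = 0.0117) were then called higher. All 5 members of the calpain system, among them the inhibitor gene Cast, were higher. The X-linked inhibitor Xiap was the member that fell most, and the TNF receptor Tnfrsf1a was the member that rose most. The core effectors Bax and Bak1, the apoptosome genes Apaf1 and Cycs, and the necroptosis kinase Ripk1 were not called. W1 to W3 did not overlap the rd10 DMSO libraries in 20 of 26 members, and this held for 69.4% of all genes.

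With the library labelled WT W4 included, none of the 26 members was called by edgeR in rd10 DMSO against WT, 5 had an unadjusted p under 0.05 (Xiap, Bcl2l2, Capns1, Mcl1 and Capn2) where 26.6% of all genes did, limma-voom called 0 and DESeq2 called 1, Xiap. Over all genes tested, edgeR called 0% of 11698 and DESeq2 called 5.04%. W4 lay outside the range of W1 to W3 in 22 of 26 members, as it did in 89.2% of all genes. In each of the 18 members called without it, W4 was on the rd10 side of W1 to W3, and in 11 of the 18 it fell within the range of the rd10 libraries. Over all genes called without W4 these shares were 99.05% and 62.9%.

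**Figure D1:**
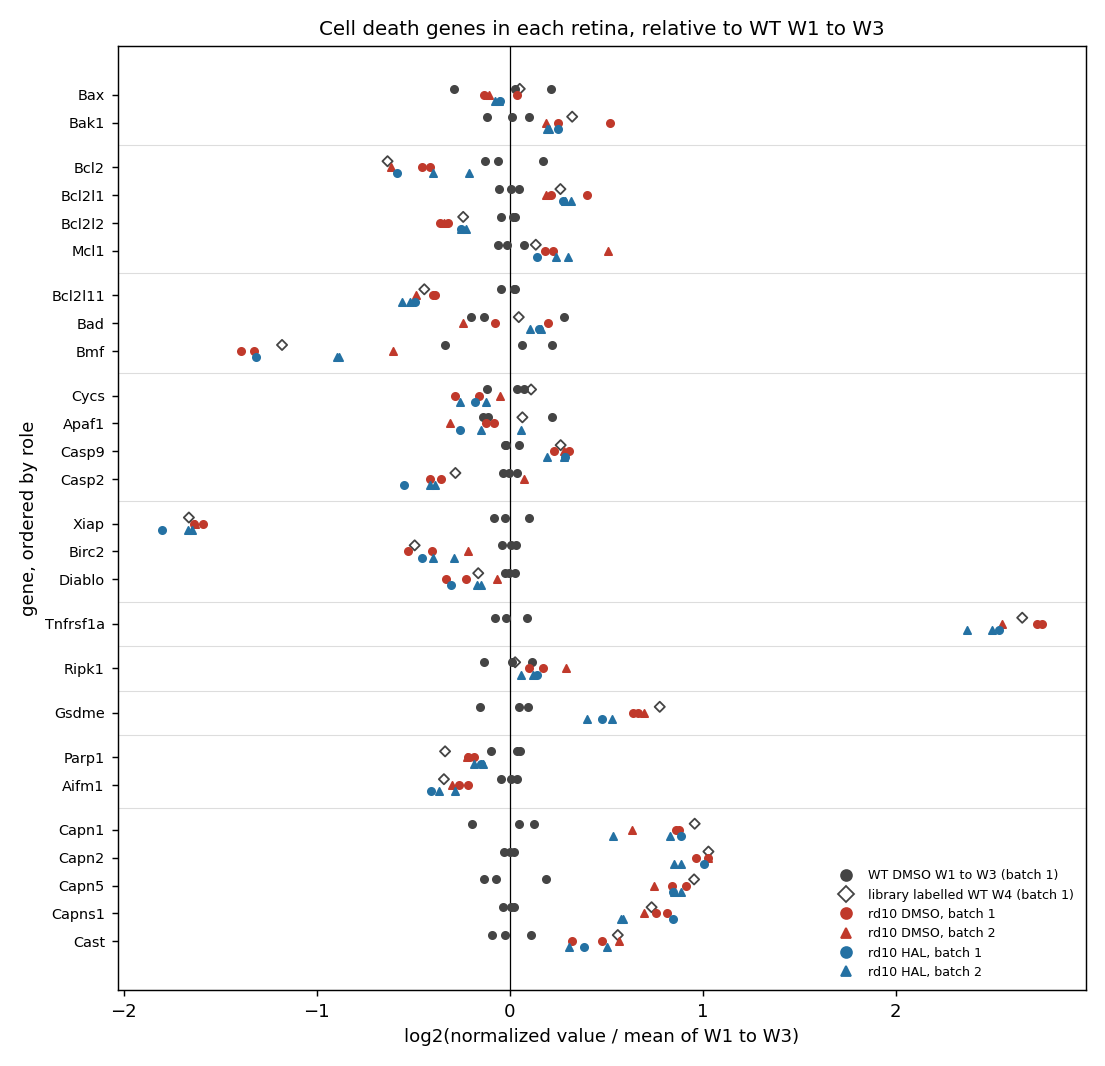
The 26 members by library, as log2 of the normalised CPM relative to the mean of W1 to W3. Members are in rows ordered by role, with a point for each library. The calpain rows and Tnfrsf1a are above the W1 to W3 mean and Xiap is below it in W4 and in all 6 rd10 libraries.

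Among the inhibitors of apoptosis, Xiap and Birc2 were lower in rd10 DMSO retinas and Diablo was not called. Xiap encodes an inhibitor that binds and blocks caspases, among them caspase-9. Xiap was at 633, 608 and 691 normalised CPM in W1 to W3, at 203 in W4, at 207, 214 and 208 in rd10 DMSO and at 184, 206 and 203 in rd10 HAL. W1 to W3 stood far above every other library, and the groups did not overlap. The log2 fold change was -1.60 ± 0.07, 3.03-fold lower (adjusted p = 1.1e-05), in rd10 DMSO and -1.70 ± 0.07 in rd10 HAL (adjusted p = 7.26e-07). In a bulk sample, fewer cells of a type and less RNA per cell cannot be told apart, here and in the results that follow. The 12 rod genes of the marker list summed to 74233 to 78740 normalised CPM in W1 to W3, whereas the rd10 sums were 3670 to 11111, and all 12 were called lower. Their part in the fall of Xiap was not tested.

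The fall of Xiap was spread over its transcripts. Xiap-202 was at a mean of 187 normalised CPM in W1 to W3 and 78.7 in rd10 DMSO, Xiap-207, annotated as a processed transcript without a coding sequence, at 156 and 40.2, Xiap-203 at 129.9 and 46.1, and Xiap-204 at 105 and 29.7. All 4 were lower, and by group Xiap-202 held the largest share in both, 29.0% and 37.5%. Single libraries differed. In W3 Xiap-207 (187) was above Xiap-202 (175), and in D1 Xiap-203 (56.4) was above it (45.9). Xiap-202 was at 45.9, 76.8 and 113 in D1 to D3. Counted per kilobase of transcript, Xiap was the most abundant of the 26 members in W1 to W3 (104 CPM per kilobase), ahead of Capns1 at 82.5. In rd10 DMSO it was at 33.9, and Capns1, at 139, was first.

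Birc2 encodes cIAP1, a ubiquitin ligase of the TNF receptor complex. It was at 74.5, 72.1 and 75.9 normalised CPM in W1 to W3, 52.7 in W4, 51.4, 56.1 and 64.0 in rd10 DMSO and 54.1, 60.7 and 56.2 in rd10 HAL. All rd10 libraries were below W1 to W3, with a log2 fold change of -0.36 ± 0.08 (adjusted p = 0.00701) in rd10 DMSO and -0.37 ± 0.06 (adjusted p = 0.000305) in rd10 HAL. Diablo encodes SMAC, the mitochondrial protein that displaces these inhibitors. It was at 61.4 to 63.7 in W1 to W3 and 49.7 to 59.7 in rd10 DMSO, with a log2 fold change of -0.19 ± 0.08 that was not called (adjusted p = 0.0627) unless D3 was left out (-0.26, adjusted p = 0.00346). In rd10 HAL, at 50.5 to 56.3, it was called lower (log2 fold change -0.20 ± 0.06, adjusted p = 0.0117). With library totals in place of TMM the Diablo estimate in rd10 HAL was 0.01.

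The promoter of Xiap is shown because Xiap was the member with the largest fall, and that of Tnfrsf1a because it had the largest rise. Sequences are from RefSeq on GRCm38.p6, from 250 bases before to 50 after an annotated start, and 40 of the 43 listed genes had one. Gsdmd, Pmaip1 and Capn5 had none. The Xiap window, chrX:42070992-42071291 on the plus strand, belongs to the start nearest to Xiap-202, 83 bases away. The Tnfrsf1a window, chr6:125349473-125349772 on the plus strand, belongs to the start of Tnfrsf1a-201. Both are in lower case because neither window holds any motif searched. The windows of the other 2 RefSeq starts of Xiap, 2927 and 3489 bases from Xiap-202, hold GGGCGG.
Xiap: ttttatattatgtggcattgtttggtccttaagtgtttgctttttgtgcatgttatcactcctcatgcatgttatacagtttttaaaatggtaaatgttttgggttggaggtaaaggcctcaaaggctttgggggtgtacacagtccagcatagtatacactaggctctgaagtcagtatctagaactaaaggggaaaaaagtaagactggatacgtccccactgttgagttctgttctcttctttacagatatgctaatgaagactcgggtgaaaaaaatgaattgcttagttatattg
Tnfrsf1a: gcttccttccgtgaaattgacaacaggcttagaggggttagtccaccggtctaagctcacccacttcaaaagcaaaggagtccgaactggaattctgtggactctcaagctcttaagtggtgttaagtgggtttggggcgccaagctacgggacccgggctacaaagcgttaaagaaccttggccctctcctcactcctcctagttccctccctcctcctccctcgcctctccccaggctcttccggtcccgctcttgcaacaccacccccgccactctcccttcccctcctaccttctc

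Motifs were searched on both strands as TAATCC (the core bound by the photoreceptor factor CRX), GGGCGG (GC box), CCAAT, an interferon response element and an NF-kB site, none of which lies inside another. A member counted when any of its RefSeq promoters held the motif, so members with several starts had more chances. TAATCC was in 1 of 25 members, Bax, and in 7.06% of all 32851 promoters. The GC box was in 19 members and 35.7% of promoters, CCAAT in 11 and 37.4%, the interferon response element in 1 (Ripk1) and 3.44%, and the NF-kB site in 0 and 0.411%. A match is a description of the letters in the window.

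The death receptor gene Tnfrsf1a was the member with the largest change. It encodes TNFR1, which binds TNF and can signal survival, apoptosis or necroptosis. Tnfrsf1a was at 5.30, 4.72 and 4.91 normalised CPM in W1 to W3, 31.4 in W4, 33.1, 33.6 and 29.1 in rd10 DMSO and 28.8, 25.7 and 28.2 in rd10 HAL. No library of W1 to W3 came near the others. The log2 fold change was 2.70 ± 0.10, 6.49-fold (adjusted p = 8.11e-06), in rd10 DMSO and 2.47 ± 0.09, 5.55-fold (adjusted p = 5.36e-07), in rd10 HAL. The protein-coding Tnfrsf1a-201 held 92.6% of its counts in W1 to W3 and 95.8% in rd10 DMSO. Markers of gliosis and of microglia moved with it. The 8 gliosis genes in the table, of 9 listed, were all called higher, and so were all 8 microglia genes in the table of 15 listed. Marker sums also took in listed genes outside the table, through their transcript counts. For gliosis they were 222 to 252 in W1 to W3 and 1020 to 1170.4 in the rd10 libraries. For microglia they were 66.9 to 74.2 and 245 to 287. Cone marker sums overlapped, at 2123 to 2292 in W1 to W3 and 2099 to 2690 in the rd10 libraries. Neutrophil markers summed to at most 0.356 in any library, and their part and that of glia in the rise of Tnfrsf1a was not tested.

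The 5 calpain system members all rose, where 32.3% of all genes were called higher, and calpain genes outside the members moved in both directions (Capn7, Capn10 and Capns2 lower, Capn3 and Capn6 higher). Capn1 and Capn2 encode the catalytic subunits of μ-calpain and m-calpain, Capns1 their shared regulatory subunit, Capn5 a calpain that lacks the calcium-binding PEF domain of the classical ones, and Cast their inhibitor calpastatin. Capn2 was at 27.7, 27.1 and 28.1 normalised CPM in W1 to W3, 56.4 in W4, 56.2, 53.9 and 56.2 in rd10 DMSO and 55.5, 49.7 and 51.1 in rd10 HAL. The rd10 libraries and W4 lay in 1 narrow band well above W1 to W3, and the rise was 2.03-fold (log2 1.02 ± 0.06, adjusted p = 2.15e-05) in rd10 DMSO and 1.90-fold (log2 0.92 ± 0.06, adjusted p = 3.08e-06) in rd10 HAL.

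Capn1 was at 9.42, 11.1 and 11.8 normalised CPM in W1 to W3, 20.9 in W4, 19.5, 19.8 and 16.7 in rd10 DMSO and 20.0, 15.6 and 19.1 in rd10 HAL. The groups did not overlap, with a log2 fold change of 0.81 ± 0.12 (adjusted p = 0.00086) in rd10 DMSO. Its counts were divided between Capn1-201 (43.2% in W1 to W3 and 48.3% in rd10 DMSO) and Capn1-202 (56.5% and 51.3%), but the division varied widely between W1, W2 and W3, where Capn1-201 was at 6.87, 2.06 and 5.05. For Capn5 the values were 20.3, 24.2 and 19.4 in W1 to W3, 41.3 in W4, 40.1, 38.2 and 35.8 in rd10 DMSO and 38.2, 38.5 and 39.4 in rd10 HAL. Every rd10 library was above every library of W1 to W3 (log2 fold change 0.85 ± 0.10, adjusted p = 0.000324).

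The regulatory subunit Capns1 was at 104, 105 and 101 normalised CPM in W1 to W3, 172 in W4, 182, 175 and 167 in rd10 DMSO and 186, 155 and 154 in rd10 HAL. It rose 1.71-fold in rd10 DMSO (log2 0.77 ± 0.06, adjusted p = 4.34e-05). The inhibitor Cast was at 18.7, 17.8 and 20.5 in W1 to W3, 28.0 in W4, 26.5, 23.8 and 28.1 in rd10 DMSO and 24.8, 23.5 and 27.0 in rd10 HAL. Its rise, 1.39-fold (log2 0.47 ± 0.09, adjusted p = 0.00317), had the smallest estimate of the 5. Cast overlaps Erap1 on the opposite strand, which was at 25.8 normalised CPM beside 23.9 for Cast, and the sources used here do not say whether strand was used in counting. In rd10 HAL all 5 were called higher as well, with log2 fold changes of 0.41 (Cast) to 0.92 (Capn2). In rd10 DMSO, Muller glia markers were called higher in 6 of 6 and bipolar markers in 6 of 8, and their part in the calpain values was not tested.

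The promoters of Capn1 and Capn2 are shown as those of the catalytic pair that rose together. The Capn1 window is chr19:6015776-6016075 on the minus strand, at the start of Capn1-202, and the Capn2 window is chr1:182517561-182517860 on the minus strand, 86 bases from the start of Capn2-201. Capitals mark CCAAT or its reverse complement in both and GGGCGG in Capn1.
Capn1: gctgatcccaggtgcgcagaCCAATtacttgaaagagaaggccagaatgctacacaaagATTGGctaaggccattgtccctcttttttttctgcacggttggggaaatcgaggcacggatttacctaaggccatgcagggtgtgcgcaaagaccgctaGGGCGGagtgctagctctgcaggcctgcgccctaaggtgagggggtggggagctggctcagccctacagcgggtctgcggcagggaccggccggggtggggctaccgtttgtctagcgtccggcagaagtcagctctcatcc
Capn2: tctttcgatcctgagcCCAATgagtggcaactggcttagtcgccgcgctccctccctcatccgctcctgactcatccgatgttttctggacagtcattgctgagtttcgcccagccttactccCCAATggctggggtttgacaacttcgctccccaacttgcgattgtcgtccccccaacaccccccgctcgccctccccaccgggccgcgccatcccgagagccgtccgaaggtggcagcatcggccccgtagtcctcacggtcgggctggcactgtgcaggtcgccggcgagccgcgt

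**Figure D2:**
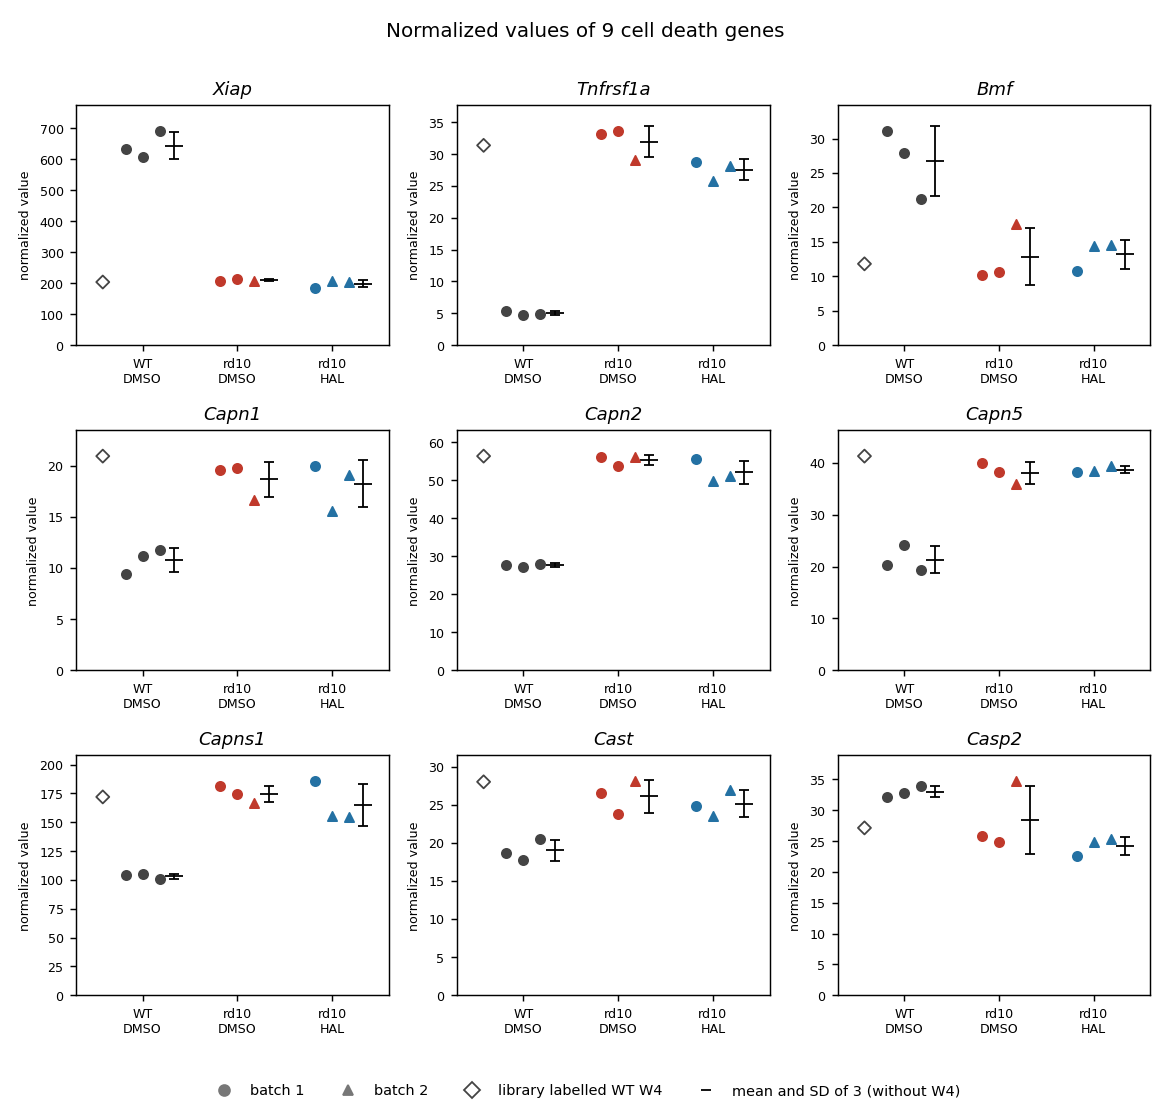
Normalised CPM of Xiap, Tnfrsf1a, Bmf, the 4 calpain genes, Cast and Casp2 in each library, with circles for batch 1, triangles for batch 2, an open diamond for the library labelled WT W4, and the mean and SD of 3 libraries per group without W4. In Xiap, Tnfrsf1a and Capn2 the diamond sits with the rd10 libraries, and in Casp2 the rd10 DMSO triangle (34.7) is level with WT.

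The survival proteins of the BCL-2 family split. Bcl2 and Bcl2l2 were lower and Bcl2l1 and Mcl1 were higher. Bcl2, the founding survival gene, was at 19.7, 20.7 and 24.3 normalised CPM in W1 to W3, 13.9 in W4, 15.7, 16.2 and 14.1 in rd10 DMSO and 14.4, 16.4 and 18.6 in rd10 HAL. The rd10 libraries were all below W1 to W3 (log2 fold change -0.47 ± 0.11 in rd10 DMSO, adjusted p = 0.0063). Bcl2l2, which encodes BCL-W, was at 193, 185 and 194 in W1 to W3, 162 in W4, 149, 153 and 151 in rd10 DMSO and 161, 160.4 and 163 in rd10 HAL. This was a small difference between tight replicates, with a log2 fold change of -0.32 ± 0.05 (adjusted p = 0.0011) in rd10 DMSO. With library totals in place of TMM the estimate was -0.12 in rd10 DMSO and -0.03 in rd10 HAL, and neither was called.

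Bcl2l1 encodes BCL-XL. It was at 69.6, 67.6 and 64.8 normalised CPM in W1 to W3, 80.8 in W4, 88.8, 78.1 and 76.8 in rd10 DMSO and 81.5, 82.1 and 83.8 in rd10 HAL, with no overlap (log2 fold change 0.29 ± 0.07 in rd10 DMSO, adjusted p = 0.0117). Mcl1, a short-lived survival protein, was at 75.6, 73.1 and 80.2 in W1 to W3, 83.8 in W4, 86.5, 89.1 and 109 in rd10 DMSO and 84.0, 90.1 and 93.9 in rd10 HAL. D3 was the highest library, and the log2 fold change was 0.33 ± 0.09 (adjusted p = 0.0179), a call lost without W1 and without W2. Counted per kilobase in W1 to W3, Bcl2l2 (54.8) was above Bcl2l1 (29.6) and Mcl1 (22.3), and Bcl2 was at 3.02.

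Of the BH3-only genes, which sense stress and bind the survival proteins, Bmf and Bcl2l11 were lower and Bad was not called. Bmf was at 31.1, 27.9 and 21.2 normalised CPM in W1 to W3, 11.8 in W4, 10.2, 10.7 and 17.6 in rd10 DMSO and 10.8, 14.4 and 14.5 in rd10 HAL. The rd10 values were all below W1 to W3, and the 3 highest of them were the batch 2 libraries. The log2 fold change was -1.07 ± 0.23, 2.10-fold lower (adjusted p = 0.00535), in rd10 DMSO and -1.01 ± 0.16 (adjusted p = 0.000446) in rd10 HAL. Without D3, that is with batch 1 libraries alone, the log2 fold change of Bmf was -1.34.

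Bcl2l11 encodes BIM, a strong activator of BAX and BAK. It was at 20.7, 21.7 and 21.7 normalised CPM in W1 to W3, 15.7 in W4, 16.4, 16.2 and 15.3 in rd10 DMSO and 15.2, 14.5 and 14.96 in rd10 HAL. The replicates were tight and the groups apart (log2 fold change -0.40 ± 0.08 in rd10 DMSO, adjusted p = 0.00252, and -0.51 ± 0.07 in rd10 HAL, adjusted p = 0.000176). Bad was at 11.8, 15.8 and 11.3 in W1 to W3, 13.4 in W4, 14.9, 12.3 and 10.96 in rd10 DMSO and 14.4, 13.95 and 14.5 in rd10 HAL, and the groups overlapped. Its antisense neighbour Gpr137 was at 39.1 beside 13.3 for Bad. The effector Bax overlapped between groups as well, at 22.2 to 31.4 in W1 to W3 and 24.7 to 27.8 in rd10 DMSO. Bak1 was at 9.71 to 11.3 in W1 to W3 and at 12.0 to 15.1 in rd10 DMSO, with a log2 fold change of 0.34 ± 0.13 just outside the threshold (adjusted p = 0.0517), which it passed without D3 (0.40, adjusted p = 0.0181). Its antisense neighbour Ggnbp1 was at 5.45 and 9.02 in separate gene entries beside 12.1 for Bak1. Bak1-201, annotated as a nonsense-mediated decay transcript, held 76.6% of its counts in W1 to W3 and 77.6% in rd10 DMSO.

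Downstream of the mitochondrion, Casp9 rose and its partners Apaf1 and Cycs were not called. Casp9, the initiator caspase of the apoptosome, was at 35.7, 34.0 and 34.1 normalised CPM in W1 to W3, 41.6 in W4, 42.9, 40.6 and 42.1 in rd10 DMSO and 42.2, 42.1 and 39.6 in rd10 HAL. All rd10 libraries were above W1 to W3 (log2 fold change 0.29 ± 0.06, adjusted p = 0.00555). Apaf1, the scaffold of the apoptosome, was at 22.3 to 28.5 in W1 to W3 and 19.8 to 23.2 in rd10 DMSO. Its transcripts differed more than its sum. Apaf1-201 held 55.6% of its counts in W1 to W3, 42.0% in W4, 20.1% in rd10 DMSO and 27.3% in rd10 HAL, and Apaf1-202 held 36.3%, 49.1%, 72.4% and 66.7%. These shares are Kallisto's division of reads among similar transcripts and were not tested. Cycs, which encodes cytochrome c and has many processed pseudogenes, was at 19.2 to 22.0 in W1 to W3 and 17.2 to 20.2 in rd10 DMSO.

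Casp2, a caspase activated by the PIDDosome after DNA damage, set D3 apart. It was at 32.2, 32.9 and 33.9 normalised CPM in W1 to W3, 27.1 in W4, 25.8, 24.8 and 34.7 in rd10 DMSO and 22.5, 24.8 and 25.3 in rd10 HAL. D1, D2 and the rd10 HAL libraries were below W1 to W3 and D3 was above them. Casp2 was not called in rd10 DMSO (log2 fold change -0.21 ± 0.13, adjusted p = 0.202), but without D3 it was called lower (-0.37, adjusted p = 0.00116), and it was called lower in rd10 HAL (-0.44 ± 0.07, adjusted p = 0.000305).

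Parp1 and Aifm1 were both lower, by 1.14-fold and 1.18-fold. PARP1 makes poly(ADP-ribose) at DNA breaks, and AIF, the product of Aifm1, moves from mitochondrion to nucleus in parthanatos. Parp1 was at 79.2, 86.9 and 88.0 normalised CPM in W1 to W3, 67.1 in W4, 72.9, 74.4 and 72.7 in rd10 DMSO and 76.3, 74.4 and 76.9 in rd10 HAL. Its groups were apart by a narrow gap (log2 fold change -0.19 ± 0.06, adjusted p = 0.028). The call was lost without W2, W3, D1 or D2, and with library totals in place of TMM the estimate was 0.01. Aifm1 was at 33.6, 34.8 and 35.6 in W1 to W3, 27.4 in W4, 28.9, 29.9 and 28.1 in rd10 DMSO and 26.1, 26.9 and 28.4 in rd10 HAL. All rd10 libraries were lower (log2 fold change -0.24 ± 0.07, adjusted p = 0.0144), and this call was lost without W2 or W3. It was also lost with library totals in place of TMM, where the estimate was -0.04.

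Gsdme, a gasdermin that forms pores once a caspase has cleaved it, was the only one of the listed pyroptosis genes in the gene table. It was at 8.99, 9.29 and 7.84 normalised CPM in W1 to W3, 14.9 in W4, 13.8, 13.6 and 14.1 in rd10 DMSO and 12.1, 12.6 and 11.5 in rd10 HAL. W1 to W3 were lowest and rd10 HAL lay between them and rd10 DMSO without overlap, while W4 was above every rd10 library. The log2 fold change was 0.68 ± 0.11 (adjusted p = 0.00136) in rd10 DMSO and 0.48 ± 0.11 (adjusted p = 0.00354) in rd10 HAL, and rd10 HAL against rd10 DMSO was not called (-0.19 ± 0.09, adjusted p = 0.883). Ripk1, the kinase that joins TNFR1 to apoptosis and necroptosis, was at 10.5 to 12.5 in W1 to W3 and 12.4 to 14.2 in rd10 DMSO and was not called (log2 fold change 0.21 ± 0.11, adjusted p = 0.141). Its antisense neighbour Serpinb6a was at 12.0 beside 12.4 for Ripk1.

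In rd10 HAL against W1 to W3, 10 members were called higher and 10 lower, where 71.9% of all 11699 genes were called, 35.7% higher and 36.2% lower. With library totals in place of TMM these were 13 higher and 5 lower (5967 and 2447 of all genes), with the calls of Bcl2, Bcl2l2, Aifm1, Parp1 and Diablo lost and Bak1, Bad and Ripk1 called higher. Without W2 Bad was called higher, without W1 Cycs was called lower, the call of Bcl2 was lost without W3, and that of Parp1 without W2, W3, H2 or H3. The members' median was 0.03, beside -0.01 over all genes. Casp2 and Diablo were among the lower ones and were not called in rd10 DMSO. The comparisons share W1 to W3, and nothing was read from the calls they have in common or from those that differ. With W4 included, edgeR called 0 of 26 members, 7 had an unadjusted p under 0.05 where 34.6% of all genes did, limma-voom called 0 and DESeq2 called 3 (Xiap, Bcl2l11 and Casp2, all lower). Over all genes edgeR called 0.00855% and DESeq2 19.02%.

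**Figure D3:**
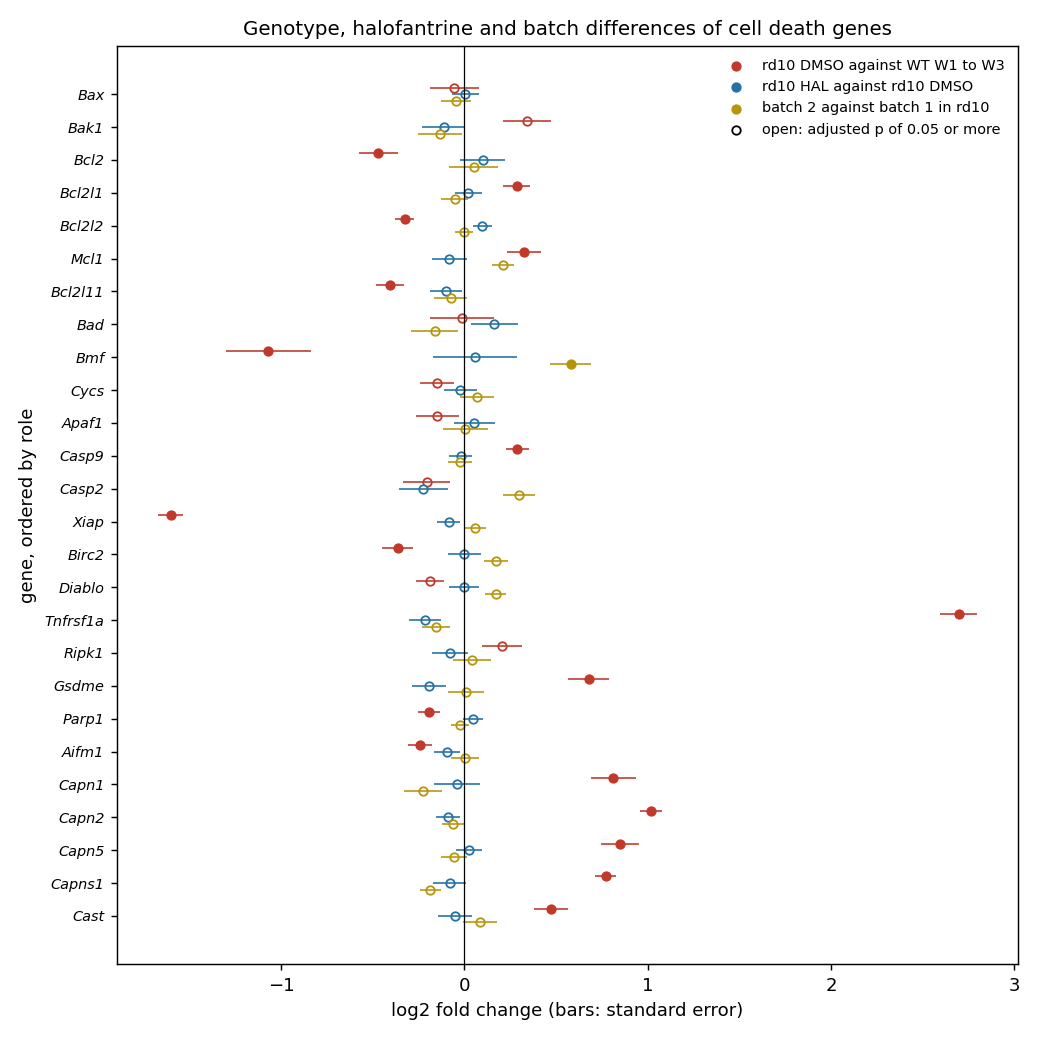
Log2 fold changes of the 26 members with their standard errors, grouped by role, with called values filled. The comparisons drawn are rd10 DMSO against W1 to W3, rd10 HAL against rd10 DMSO, and the batches within rd10. Values of rd10 HAL against rd10 DMSO lie between -0.22 and 0.17 and none is filled.

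Halofantrine was compared with DMSO directly within rd10. None of the 26 members was called by edgeR, where 0% of all 11692 genes were. In this fit, which had no batch term, Tnfrsf1a alone had an unadjusted p under 0.05, where 4.76% of all genes did. DESeq2, limma-voom and an edgeR fit with batch as a term each called 0 of the 26. With batch as a term, 1952 of all 11692 genes had an unadjusted p under 0.05, where 557 did without it. The lowest adjusted p over all genes was then 0.268. In the fit without batch, log2 fold changes ran from -0.22 (Casp2) to 0.17 (Bad). Its 95% intervals, without adjustment for the number of genes, ran from -0.54 to 0.60 over all 26, so that a change of 2-fold lay outside each of them. Both extremes moved when a single library was left out, but kept their sign. Casp2 was at -0.06 without D3, and Bad was at 0.30 without D1 and 0.08 without D3. The members' median was -0.03, beside -0.0045 over all genes.

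Tnfrsf1a was at 33.1, 33.6 and 29.1 normalised CPM with DMSO and 28.8, 25.7 and 28.2 with halofantrine. Every halofantrine library was lower, by a narrow gap, and the log2 fold change of -0.22 ± 0.09 was not called (adjusted p = 0.883). DMSO and halofantrine libraries did not overlap in 5 of 26 members, as in 13.2% of all genes. In Bcl2l2 the halofantrine libraries were the higher ones (log2 fold change 0.10 ± 0.05), and in Bcl2l11, Xiap, Tnfrsf1a and Gsdme they were the lower ones. Within batch 1 the difference in log2 of the mean normalised CPM ran from -0.21 to 0.09 over the members, and within batch 2 from -0.47 to 0.38. The sign was the same in both batches for 13 members and opposite for 13.

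Batch was compared within rd10, with treatment as a term, because D3, H2 and H3 came from batch 2. Bmf alone was called of the 26 members, where 4.78% of genes were called, 3.16% higher and 1.63% lower in batch 2. Bmf was at 10.2, 10.7 and 10.8 normalised CPM in the batch 1 libraries and at 17.6, 14.4 and 14.5 in those of batch 2. The batches did not overlap, and the log2 fold change was 0.58 ± 0.11 (adjusted p = 0.0346). Mcl1 (0.21 ± 0.06, adjusted p = 0.0877) and Casp2 (0.30 ± 0.09, adjusted p = 0.0893) had positive values and Capns1 (-0.18 ± 0.06, adjusted p = 0.0933), Capn1 (-0.22, adjusted p = 0.211) and Tnfrsf1a (-0.15 ± 0.08, adjusted p = 0.236) negative ones, none of them called. The call of Bmf was lost when any of D1, D2, D3, H2 or H3 was left out. The batches did not overlap in 7 members (Bak1, Mcl1, Bmf, Birc2, Diablo, Capn1 and Capns1), and in 28.0% of all genes. Rod marker sums moved with batch too, at 3670 to 4022 in batch 1 and 7669 to 11111 in batch 2, and their part in the Bmf value was not tested.

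The 17 listed genes outside the gene table were read from sums of transcript counts, divided by the same library factors. Transcripts were joined to genes through GENCODE M21, which held 48.7% of the transcript ids and 97.4% to 97.7% of the counts. Counts on unmatched transcripts are not in the sums. The 17 genes were mostly low, and 13 of them passed the filter on low counts against W1 to W3. Of these 13, 8 were called higher and 0 lower in rd10 DMSO, and 10 were called higher and 0 lower in rd10 HAL. Over all genes of the same fits, 52.4% were called in rd10 DMSO (26.9% higher and 25.5% lower) and 61.1% in rd10 HAL (30.9% higher and 30.2% lower). A gene that passed the filter only through the rd10 libraries had to differ, so these counts do not describe the 17. With W4 included 0 of 15 tested were called by edgeR, DESeq2 or limma-voom in rd10 DMSO, and 2 had an unadjusted p under 0.05. Over all genes of that fit edgeR called 0.00566%, all of them lower, and 24.3% had an unadjusted p under 0.05. In rd10 HAL against the 4 libraries labelled WT, 0 of 15 were called by edgeR and 2 had an unadjusted p under 0.05, where 0.00562% and 30.03% of all genes did. Between the batches of rd10, edgeR called 0 of 16, where 2.14% of all genes were called, 1.55% higher and 0.581% lower. Pmaip1 and Fas had an unadjusted p under 0.05, as 20.7% of all genes did.

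Extrinsic pathway genes were among those that rose. Casp8, the initiator caspase of death receptors, had CPM values of 0.569, 0.904 and 0.877 for W1 to W3, 3.15 in W4, 3.50, 3.02 and 3.63 in rd10 DMSO and 2.50, 1.98 and 3.29 in rd10 HAL. W1 to W3 were well below the rest (log2 fold change 2.08 ± 0.26 in rd10 DMSO, adjusted p = 0.000412). Fas, the receptor of Fas ligand, was at 0.852, 0.853 and 0.877 in W1 to W3, 2.00 in W4, 2.32, 2.07 and 3.69 in rd10 DMSO and 1.07, 2.11 and 2.73 in rd10 HAL (log2 fold change 1.59 ± 0.30 in rd10 DMSO, adjusted p = 0.00306). H1 was the rd10 library nearest to W1 to W3. Birc3, which encodes cIAP2, was at 0.507 to 0.583 in W1 to W3, 2.57 in W4, 2.24 to 3.09 in rd10 DMSO and 1.52 to 2.50 in rd10 HAL, 4.82-fold higher in rd10 DMSO. The adaptor Fadd was at 5.39 to 5.60 in W1 to W3 and 4.89 to 5.52 in rd10 DMSO and was not called.

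Casp1 and Casp12 were near 0 in W1 to W3, and Pycard and Gsdmd were low. Casp1, the caspase that matures IL-1β and IL-18, had CPM values of 0, 0.0502 and 0 for W1 to W3, 1.66 in W4, 0.896, 0.995 and 1.15 in rd10 DMSO and 1.48, 1.15 and 1.24 in rd10 HAL. This was 1 count over W1 to W3 against 81 over rd10 DMSO, a ratio of 58.2 with a 95% counting interval of 10.2 to 2325 that covers counting error only. Casp12, a caspase of the endoplasmic reticulum, had 7 counts against 192, a ratio of 19.7 (9.38 to 49.6). Pycard, which encodes the inflammasome adaptor ASC, was at 0.723, 0.907 and 0.891 in W1 to W3, 2.23 in W4 and 3.01, 1.60 and 2.03 in rd10 DMSO (log2 fold change 1.38 ± 0.32, adjusted p = 0.00843). Gsdmd, the pore-forming target of caspase-1, was at 0.904 to 1.52 in W1 to W3, 2.37 in W4 and 2.14 to 4.002 in rd10 DMSO (log2 fold change 1.16 ± 0.32, adjusted p = 0.0176). Microglia markers rose beside these genes, as given above, and their part was not tested.

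Il18 was at 4.42 to 5.67 CPM in W1 to W3 and 5.79 to 7.27 in rd10 DMSO and was called in rd10 HAL (log2 fold change 0.51 ± 0.14, adjusted p = 0.0108). The necroptosis genes Ripk3 and Mlkl, the inflammasome sensor Nlrp3 and the caspase Casp4 did not pass the filter against W1 to W3. Ripk3 had 2 counts over W1 to W3 and 7 over rd10 DMSO, a ratio of 2.51 with a 95% counting interval of 0.479 to 24.8, so a difference in Ripk3 was not detectable within that interval. Mlkl had 14 and 43 counts, a ratio of 2.21 (1.18 to 4.36). Nlrp3 had 14 and 46, a ratio of 2.36 (1.27 to 4.65), with D3 at 1.35 CPM beside 0.447 and 0.324 in D1 and D2. Casp4 had 9 and 33, a ratio of 2.63 (1.23 to 6.26), with D3 at 0. These intervals cover counting error only and not the spread between libraries, and a count of 3 corresponds to 0.0747 to 0.185 CPM per library.

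Of the BH3-only genes outside the gene table, Bid, which caspase-8 cleaves to reach the mitochondrion, had CPM values of 3.55, 3.01 and 2.92 for W1 to W3, 5.81 in W4 and 5.77, 5.93 and 4.80 in rd10 DMSO (log2 fold change 0.78 ± 0.17, adjusted p = 0.00675). Bid overlaps Bcl2l13 on the opposite strand, at 73.3 beside 4.75. Bbc3, which encodes PUMA, was at 1.58 to 1.80 in W1 to W3, 2.48 in W4, 1.42 to 2.44 in rd10 DMSO and 2.95 to 4.09 in rd10 HAL. The halofantrine libraries were above all others. Bbc3 was called in rd10 HAL against W1 to W3 (log2 fold change 1.03 ± 0.20, adjusted p = 0.00185), but not in rd10 HAL against rd10 DMSO (0.77 ± 0.25, adjusted p = 0.91). In the latter 0 of 16 tested were called by edgeR, DESeq2 or limma-voom, and edgeR called 0% of all 17891 genes. Bbc3 alone of the 16 had an unadjusted p under 0.05, as 4.70% of all genes did. Pmaip1 (NOXA) and Casp6, an effector caspase, were not called in any comparison.

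**Figure D4:**
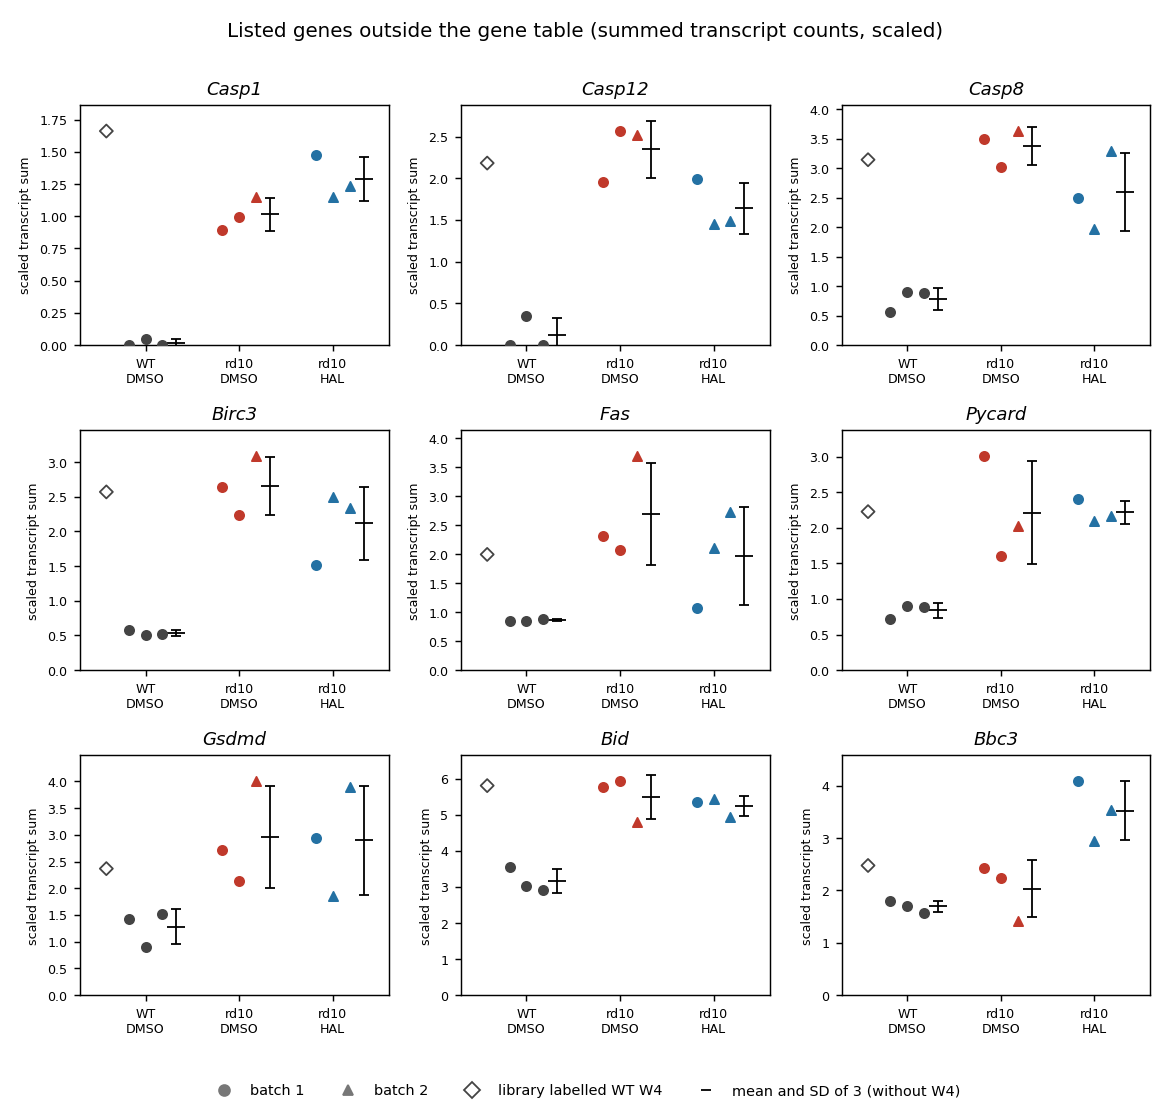
Scaled transcript sums in CPM of 9 listed genes outside the gene table in each library, with circles for batch 1, triangles for batch 2, an open diamond for the library labelled WT W4, and the mean and SD of 3 libraries per group without W4. Casp1 is near 0 in W1 to W3 and at 0.896 to 1.48 in the rd10 libraries, and the lower end of the Casp12 SD bar in WT is below 0 and not drawn.

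Other genes of the same pathways were taken from a list of 63, of which 31 were tested in the gene table. In rd10 DMSO against W1 to W3, 9 of the 31 were higher, 12 lower and 10 not called, where 32.3% of all genes were higher and 29.9% lower. With W4 included edgeR and limma-voom called 0 of the 31 and DESeq2 called 2, and 10 had an unadjusted p under 0.05, where DESeq2 called 5.04% of all genes and 26.6% had such a p. Tnfaip3, which encodes the NF-kB inhibitor A20, was at 413, 386 and 437 normalised CPM in W1 to W3, 40.7 in W4, 45.1, 45.0 and 60.2 in rd10 DMSO and 44.2, 73.8 and 62.5 in rd10 HAL. It fell by 3.03 on the log2 scale in rd10 DMSO. Of the other calpains, Capn7 (log2 fold change -0.67) and Capn10 (-0.74) were lower and Capn15 was not called, while in the transcript sums Capn3 (1.92) and Capn6 (1.17) were higher and Capns2 (-0.89) lower. Capn10 was at 36.4 to 39.3 in W1 to W3, 21.5 in W4 and 21.4 to 23.2 in rd10 DMSO.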

How the data were processed

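Retinal RNA from 10 libraries was made with a stranded mRNA kit. The authors quantified reads with Kallisto against the Ensembl 115 mouse transcriptome and summarised them with tximport. They deposited estimated counts for 11702 genes and for 275112 transcripts, beside gene counts scaled by a factor for each library. This deposited signal is called normalised CPM here and sums to 943804 to 1127682 per library. Estimated counts were rounded. The deposited table of the authors' comparison holds log2 fold changes, mean log2 expression, p-values, adjusted p-values and a score, and was not used.

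Groups came from the labels. Each comparison was fitted in edgeR 4.0.16 (R 4.3.3) with filterByExpr, TMM and the quasi-likelihood test on the libraries compared, with Benjamini-Hochberg adjustment over all genes, and called at 0.05. The batch comparison had a treatment term. Standard errors are the log2 fold change divided by the root of F. Values in every library are given for members called against W1 to W3, for the 3 with the smallest unadjusted p in each direction in rd10 HAL against rd10 DMSO and in the batch comparison, and for partners in the same complex. Other members are given by range. Further pathway genes came from a list of 63. Alternatives were DESeq2 1.42.0, limma-voom (limma 3.58.1), library totals, other filters, limma on the deposited normalized values, 1 fit over all libraries, batch as a term and leaving out each library. Sums of transcript counts and fits with and without the library labelled WT W4 were chosen after seeing the data. The members and lists were chosen with earlier results of these data known. The interferon response element was searched as GAAA, any 2 bases, GAAA, and the NF-kB site as GGGA, any base, TTTCC. Promoters and gene names are from RefSeq and GENCODE tables on GRCm38.p6, while the submitters' processing notes name GRCm39, so no coordinate was converted. No duplicate libraries were found. The scripts were tested on simulated data. Results on some genes are not reported here.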

Additional observations from a re-analysis of the deposited data

Results flagged for a closer look

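In 5 of the 26 members, the library labelled WT W4 lay apart from the other 3 WT libraries by more than Dixon's 95% critical value for 4 samples, which is set on the gap divided by the range. Chance flags about 1 in 20 groups, and W4 lay apart in this way in 28.1% of all genes. W4 was at 203.4 normalised CPM in Xiap, 52.74 in Birc2, 31.36 in Tnfrsf1a, 56.36 in Capn2 and 172 in Capns1. In each of these genes W4 was on the side of the rd10 libraries.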

How the results depend on the processing

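Of 744 values of named members under alternatives, 672 kept their direction and side of the threshold, 66 lost their call, 3 gained one and 3 reversed. The 3 reversals came with library totals in place of TMM, which moved the median of all genes by 0.21 in both comparisons with W1 to W3: Parp1 was at 0.0145 in rd10 DMSO and 0.0574 in rd10 HAL against W1 to W3, and Diablo at 0.0102 in rd10 HAL. Members higher and lower then numbered 12 and 2 in rd10 DMSO and 13 and 5 in rd10 HAL. Leaving out each library gave 15 to 21 called members in rd10 DMSO and 18 to 21 in rd10 HAL against W1 to W3, where all genes called numbered 6154 to 8460 and 7648 to 8234. With W4 included, DESeq2 called 1 in rd10 DMSO and 3 in rd10 HAL, and leaving out libraries gave 0 to 18 and 0 to 20. The highest counts were those without W4. For batch, DESeq2 called 2 (1429 of all genes), a fit without the treatment term 0, and leaving out libraries gave 0 to 3, the highest without H1 (Bmf, Mcl1 and Casp2), where 2635 of all genes were called. For the genes outside the gene table in rd10 DMSO with W4 included, leaving out libraries gave 0 to 8, and the stricter filter left 1 called in rd10 DMSO and 2 in rd10 HAL against W1 to W3, with fewer genes tested. The cause of the other changes was not tested. No paired analysis was possible because the labels give no replicate numbers that join libraries across groups. Depth limits the genes under about 1 CPM.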
